A study of Mus musculus with 8 samples.

Results

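The wild-type (WT) anterior neural progenitor transcriptome is described here from 4 of the 8 libraries of the series, chosen by the genotype in their titles and by the 4 WT columns of the deposited table. The cells came from E14, a mouse embryonic stem cell line, and were differentiated without serum or LIF for 5 days in N2B27, a defined neural medium. The medium held bFgf, a fibroblast growth factor, at 10 ng per ml for the first 3 days, and from day 2 it held Xav939, a WNT pathway inhibitor, at 5 µM. Polyadenylated RNA was sequenced, and the other 4 libraries, from cells lacking a distal enhancer of the gene Lhx5, were not used. No clone, pooling or library date is given for the WT cells, and the design text calls the 4 libraries biological replicates. As all cells of a culture were lysed together, fewer cells of a type and less RNA per cell cannot be told apart. With 1 group there is no test between groups, so every value below is a description with n = 4.

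Neural progenitors of the early neural plate are dividing epithelial cells that express SoxB1 factors and are patterned along the head to tail axis before neurons appear. Where WNT, retinoic acid and FGF signals are weak, the plate keeps an anterior character marked by Otx2 and eye field factors. Stronger signals turn on midbrain, hindbrain and then Hox genes. Along the back to belly axis, BMP and WNT signals favour dorsal genes and Hedgehog favours ventral ones.

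Levels are in FPKM, fragments scaled by transcript length and by the mapped total of the library, so genes can be ordered by this level per length. A gene is called on where it reached 1 FPKM in all 4 libraries, silent where it stayed under 0.1 FPKM in all 4, and between otherwise. Of 21549 protein-coding genes in the table, 11487 were on (53.3%), 6665 were silent (30.9%) and 3397 were between, and 4212 were listed at 0 in all 4 libraries. A gene near 1 FPKM had a median of 72.1 reads in the authors' WT mean and a gene near 0.1 FPKM had 6.77, so that silent means few or no reads and not that a transcript was absent. Ranks given below run from 1, the highest, over the coding genes. Counts of list members on are to be read beside the 53.3% of all coding genes on, and counts silent beside 30.9%. FPKM summed to between 518491 and 528726 per library, 11680 to 11744 coding genes reached 1 FPKM, and the top 100 coding genes held 21.2% to 22.0% of coding FPKM.

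WT replicate 2 stood apart from the other 3 WT libraries. Among coding genes with a mean of at least 10 FPKM, between 144 and 319 differed at least 1.25-fold in the pairs with replicate 2, against 51 to 66 in the pairs without it. Its depth, judged from the smallest steps between low values, was 1.20 times that of replicate 1, against 1.07 and 1.06 for replicates 3 and 4. All entries of the mitochondrial chromosome, not its coding genes alone, held 3.15% of the FPKM of replicate 2, against 3.62% to 4.13% in the others. For the coding genes mt-Co1, mt-Nd1 and mt-Cytb, replicate 2 stood at 2071, 1340 and 1194 FPKM. The others stood at 2080 to 2125, 1398 to 1452 and 1254 to 1268 FPKM. The part of depth or RNA composition in the values of replicate 2 was not tested. Where it decides a value, the other 3 libraries are given apart from it or as the base of a ratio.

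All 8 marker genes of anterior neural progenitors were on. Otx2, a homeobox factor required for the forebrain and midbrain (chromosome 14, 48657677 to 48673819, minus strand, GRCm38), stood at 200.0, 220.1, 210.0 and 196 FPKM and ranked 313. Sox2, the SoxB1 factor of the whole neural plate, stood at 131, 140.4, 139 and 129 FPKM. These were the first and second of the 201 transcription factors listed, and neither overlapped the factor next below it in any library. Pax6, an eye and forebrain factor, stood at 38.8, 39.7, 39.8 and 36.2 FPKM, and Fezf1, a forebrain zinc finger factor, at 35.3, 36.8, 35.5 and 35.2 FPKM. Sox1, which marks committed neural plate, stood at 23.0, 21.04, 21.9 and 21.4 FPKM, and Lhx5, a LIM homeobox factor of the forebrain (chromosome 5, 120431699 to 120441223, plus strand), at 16.9, 17.5, 16.2 and 15.0 FPKM. In these 6 genes the libraries lay close together, with a coefficient of variation (SD over mean) under 10%.

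Hesx1 and Six3, both repressors needed for the anterior forebrain, varied more between libraries. Hesx1 stood at 21.7, 36.7, 24.1 and 24.0 FPKM and Six3 at 13.2, 21.9, 15.0 and 14.1 FPKM. Replicate 2 was the highest for both, 1.58 times and 1.55 times the mean of the other 3 libraries, which had means of 23.2 ± 1.33 and 14.1 ± 0.899 FPKM (SD, n = 3). All 8 markers were on with and without replicate 2. The 8 genes had a median level of 31.2 FPKM and all had means above the median of the genes on, 15.1 FPKM.

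**Figure D1:**
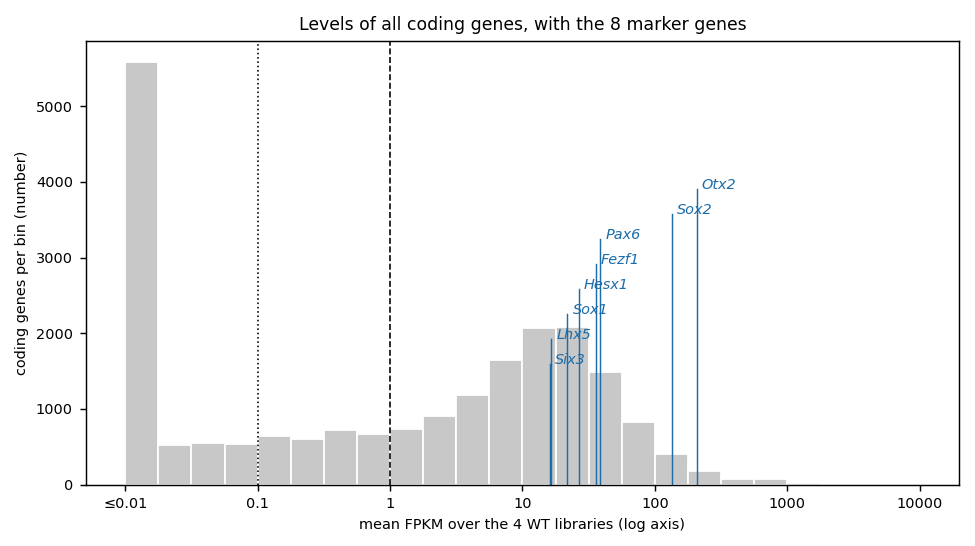
Number of coding genes (vertical axis) by mean FPKM over the 4 WT libraries (log axis, bins of 0.25 log10 units, values of 0.01 and below in the first bin). The dotted and dashed lines stand at 0.1 and 1 FPKM, and the 8 marker genes, drawn as vertical lines, lie between 16.0 and 206 FPKM.

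The promoters of 3 genes show how the letters before a gene start differed among the genes on and silent. Sox2 is shown as a progenitor factor at a high level, Cdx2 as a silent developmental factor of the trunk, and Afp as a silent liver gene. Each line gives the 250 bases before the RefSeq start, 5′ to 3′ on the gene's own strand, with CG pairs in capitals.
Sox2, chr3:34649745-34649994, plus strand, GRCm38.p6: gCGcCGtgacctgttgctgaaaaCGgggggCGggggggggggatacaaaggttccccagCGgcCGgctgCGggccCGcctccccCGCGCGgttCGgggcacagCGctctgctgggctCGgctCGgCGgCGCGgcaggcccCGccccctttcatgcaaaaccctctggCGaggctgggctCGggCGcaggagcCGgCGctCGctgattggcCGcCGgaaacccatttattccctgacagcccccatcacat
Cdx2, chr5:147307250-147307499, minus strand, GRCm38.p6: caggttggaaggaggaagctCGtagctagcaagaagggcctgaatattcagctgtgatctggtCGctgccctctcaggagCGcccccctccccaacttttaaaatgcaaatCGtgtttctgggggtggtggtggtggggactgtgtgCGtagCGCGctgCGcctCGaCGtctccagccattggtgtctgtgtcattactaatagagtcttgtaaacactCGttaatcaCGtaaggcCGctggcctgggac
Afp, chr5:90490464-90490713, plus strand, GRCm38.p6: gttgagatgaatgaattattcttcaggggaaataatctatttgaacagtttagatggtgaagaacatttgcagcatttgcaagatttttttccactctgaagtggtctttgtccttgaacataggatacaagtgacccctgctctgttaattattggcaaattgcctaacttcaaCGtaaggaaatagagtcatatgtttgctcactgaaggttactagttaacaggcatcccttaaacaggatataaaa
These stretches held 27, 13 and 1 CG pairs in that order. Over the full 300-base windows, which add 50 bases after the start, the 9069 genes on with a window had a median of 22 CG pairs (25th to 75th percentile 15 to 29) and the 4861 silent genes a median of 3 (1 to 5). Among transcription factors of the lists the medians were 21 for 62 on, 20 for 58 between and 13.5 for 22 silent, so that silent factors carried more pairs than silent genes at large. The motif TATAAA was searched on both strands (TTTATA on the other). It was in 5.87% of windows of genes on and 26.0% of windows of silent genes. These stand beside 12.65% for all 16302 coding genes with a window and 13.6% of all 32851 windows. The listed factors did not share that order, with the motif in 11.3% of those on, 17.2% of those between and 4.5% of those silent, 1 of 22. A match is a description of letters and not of a binding site.

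**Figure D2:**
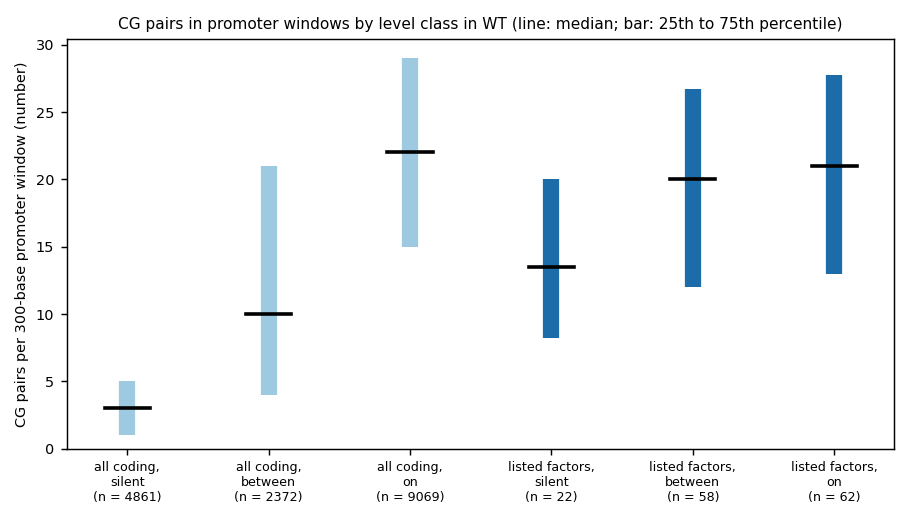
CG pairs per 300-base RefSeq promoter window (vertical axis) for coding genes and for the listed transcription factors by level class in WT. Lines are medians and bars run from the 25th to the 75th percentile, with the silent factors at a median of 13.5 against 3 for all silent coding genes.

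Genes of the neural progenitor state were on throughout. All 20 members of that list were on, with a median of 34.9 FPKM over the list. Msi1, an RNA-binding protein of neural stem cells, followed Sox2 at 124, 123, 116 and 120.4 FPKM, and Sox11, a SoxC factor, stood at 91.8, 91.0, 93.5 and 92.7 FPKM, the latter with a coefficient of variation of 1.18%. Cdh2, the N-cadherin of neuroepithelium, stood at 67.0, 53.7, 65.1 and 61.3 FPKM, lowest in replicate 2. Nes and Vim, which encode intermediate filaments of progenitors, stood at 23.4 ± 1.42 FPKM and 35.0 ± 1.09 FPKM (mean ± SD, as below). The 4 lowest members were Slc1a3, a glial glutamate transporter gene, at 2.78 to 3.01 FPKM, Fabp7, a brain fatty acid binding protein, at 1.30 to 2.76 FPKM, and the POU factors Pou3f3 and Pou3f2 at 1.97 to 3.05 FPKM and 1.07 to 2.19 FPKM.

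Eye field and rostral neural plate genes were mostly on, 9 of 14. Besides the markers, Fezf2, a forebrain zinc finger factor, stood at 26.6 ± 2.89 FPKM, above the marker Six3 in every library. Lhx2, a LIM homeobox factor of eye and cortex, stood at 11.5 ± 0.922 FPKM, and Rax, which specifies the eye field, at 6.10 to 8.54 FPKM. Otx1 stood at 14.8, 7.71, 13.2 and 11.1 FPKM, lowest in replicate 2, at 0.591 times the mean of the others. Six6, an eye factor, was silent (0.0159 to 0.0508 FPKM). Vax1, a ventral forebrain factor, was listed at 0 in replicate 1 and at 0.297 FPKM in replicate 2.

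Of the 13 telencephalic genes described, 4 were on. Sp8, a zinc finger factor of the anterior ridge, stood at 21.6, 16.5, 22.2 and 20.3 FPKM, Emx2, a cortical homeobox factor, at 15.4, 17.5, 19.4 and 18.5 FPKM, Dmrt3 at 11.4 ± 1.06 FPKM and Dmrta2 at 3.94 ± 0.405 FPKM. Emx1, Gsx2, Eomes and Dlx5 were between the thresholds, and Dlx1, of ventral telencephalic neurons, was silent (0.0155 to 0.0857 FPKM). Nkx2-1, of the ventral forebrain, stood at 0.0220 to 0.126 FPKM.

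Of the 11 diencephalic and pretectal genes described, 8 were on. After Lhx5 came the Iroquois factors Irx3 at 14.7 ± 0.707 FPKM and Irx2 at 14.4 ± 0.915 FPKM, then Wnt8b, a WNT ligand of the dorsal forebrain, at 12.4 ± 1.28 FPKM. Each of these 4 genes overlapped its neighbour in this order, while Lhx5 lay above Wnt8b in every library. Barhl1 was highest in replicate 2 (2.77, 4.57, 3.20 and 3.02 FPKM).

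Midbrain and isthmus genes were on in 10 of 14 cases, and some stood high. Wnt1, a WNT ligand of the midbrain and its boundary with the hindbrain (chromosome 15, 98789857 to 98793837, plus strand), stood at 104, 85.0, 101 and 102 FPKM and ranked 780. Pax2, a paired-box factor of that region, stood at 36.6, 36.0, 38.6 and 39.8 FPKM, with all libraries close. En1, a homeobox factor of the midbrain and anterior hindbrain, stood at 34.8, 25.6, 32.9 and 35.9 FPKM, and Lmx1b at 27.4 ± 1.15 FPKM. Fgf8, the ligand of the isthmic organizer, was far lower at 3.08, 1.29, 2.63 and 2.37 FPKM, and its relative Fgf17 was silent (0.0404 to 0.0719 FPKM). Replicate 2 was the lowest library for Wnt1, En1 and Fgf8. Pax3 stood at 1.42, 0.954, 1.37 and 1.05 FPKM, and would be on without replicate 2.

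Of the 10 hindbrain genes described, 0 were on in all 4 libraries. Gbx2, a factor that abuts Otx2 at the midbrain boundary, stood at 1.59, 0.938, 1.49 and 1.96 FPKM, and would be on without replicate 2. Egr2, of rhombomeres, stood at 0.0614 to 0.175 FPKM and Fgf3, an FGF ligand, at 0.0716 to 0.152 FPKM. Of the 10 genes 6 were silent, among them Hoxb1, Hoxa3 and Hoxb3, listed at 0 in all 4 libraries, and Hoxa2 (0.0170 to 0.0203 FPKM).

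Trunk and posterior genes were on in 0 of 17 cases, and 14 of the 17 were silent. Of these, 8 were listed at 0 in all 4 libraries, including Cdx2 and Cdx4, which drive trunk identity. T, the mesoderm and axial progenitor factor Brachyury, was the highest of the list at 0.210, 0.301, 0.405 and 0.461 FPKM, and Cdx1 stood at 0 to 0.0206 FPKM. The order of the regional lists by the share of members on was therefore diencephalon and pretectum (72.7%), midbrain and isthmus (71.4%), eye field (64.3%) and telencephalon (30.8%), with hindbrain and trunk both at 0%, beside 53.3% of all coding genes. Without replicate 2 Pax3 would be on, and midbrain and isthmus would come before diencephalon and pretectum. The lists were chosen by hand, differ in size and do not hold every gene of a region, so the order describes these lists only.

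**Figure D3:**
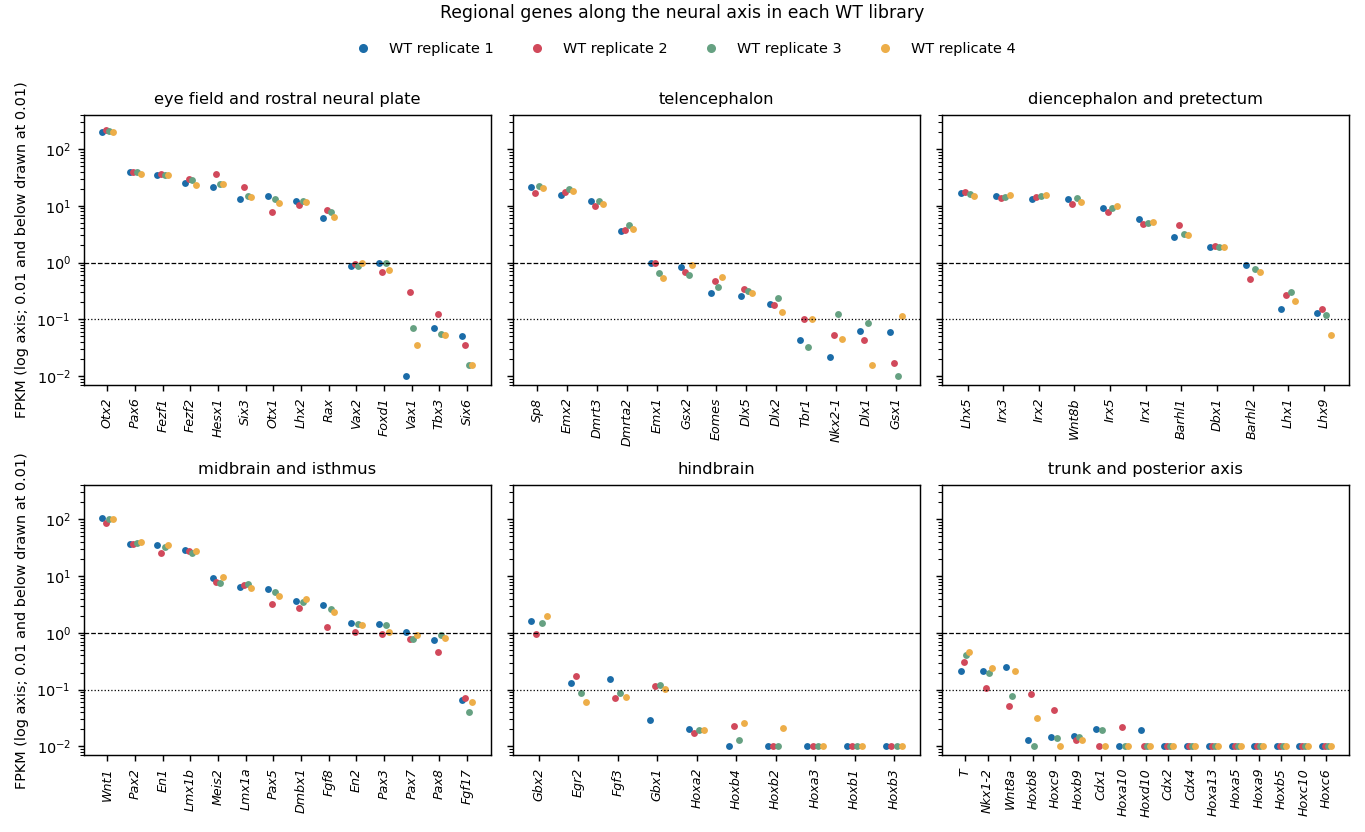
FPKM (log axis, values of 0.01 and below drawn at 0.01) of each gene of 6 regional lists in each WT library, 1 point per library. Dashed and dotted lines mark 1 and 0.1 FPKM. Eye field to midbrain panels hold genes above 10 FPKM, while in the trunk panel every point lies under 1 FPKM.

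Of the 12 dorsal neural genes described, 7 were on. The zinc finger factors Zic2 and Zic5 stood at 48.5, 57.4, 46.9 and 50.8 FPKM and 15.0 ± 1.73 FPKM. Bmp7 and Bmp4, dorsal signals, stood at 9.14 ± 0.834 FPKM and 2.10, 4.48, 2.37 and 2.86 FPKM, the latter highest in replicate 2. Zic1 was lowest there (2.56, 1.09, 2.07 and 1.92 FPKM). Atoh1 and Olig3, of dorsal interneuron progenitors, stood at 0.0698 to 0.117 FPKM and 0.0163 to 0.122 FPKM. Ventral neural genes were on in 1 of 11 cases, Nkx6-1, a homeobox factor of the ventral tube, at 2.76, 2.71, 2.78 and 3.04 FPKM. Shh, the ventral signal, was listed at 0 in all 4 libraries, and Nkx2-2 was listed at 0 in 3 of them and at 0.0372 FPKM in the other. Foxa2, of the floor plate, stood at 0.0484 to 0.204 FPKM and Olig2, of motor neuron progenitors, at 0.0574 to 0.149 FPKM.

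Some neuronal genes were on, 8 of 17 (47.1%), beside 53.3% of all coding genes. Stmn2, a microtubule regulator of growing axons, stood at 29.9, 36.8, 29.7 and 31.9 FPKM, Map2, a dendritic microtubule protein, at 28.1 ± 3.63 FPKM, and Rbfox3, the neuronal nuclear antigen, at 7.13 ± 0.507 FPKM. Neurog2, a proneural factor, stood at 2.71, 6.91, 3.25 and 3.06 FPKM, and replicate 2 was 2.30 times the mean of the others. Dcx, of migrating neurons (0.0274 to 0.0620 FPKM), Neurod4 (0.0481 to 0.0614 FPKM) and Slc17a6, a glutamate transporter gene (0.0548 to 0.0851 FPKM), were silent. Tubb3 was not analysed here.

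Among 7 glial genes 4 were on. The myelin genes Cnp and Mbp stood at 10.8 ± 0.707 FPKM and 5.83 ± 0.406 FPKM, and Aldh1l1, an astrocyte enzyme gene, at 2.77 ± 0.656 FPKM. Aqp4, an astrocyte water channel gene, lay at 1.20 to 1.43 FPKM. Gfap, the astrocyte filament, stood at 0.0247 to 0.131 FPKM, and S100b was listed at 0 in all 4 libraries.

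Genes of neighbouring ectodermal fates were partly on. Of 12 neural crest genes 5 were on, led by Sox9 at 36.9, 39.8, 38.4 and 36.1 FPKM, while Foxd3, an early crest factor, stood at 0.113 to 0.171 FPKM and Sox10, a factor of migrating crest, at 1.04 to 1.23 FPKM. Of 15 surface ectoderm and epithelial genes 6 were on. Krt18, a simple epithelial keratin, stood at 17.1, 23.8, 18.5 and 18.1 FPKM, Cdh1, the E-cadherin of epithelia, at 6.39, 9.90, 5.87 and 7.40 FPKM, and Krt8 at 6.16, 8.42, 6.96 and 7.06 FPKM. All 3 were highest in replicate 2. The epidermal genes Krt5, Krt14 and Trp63 were silent, with Krt14 listed at 0 throughout.

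Pluripotency genes were on more often in the epiblast and general list than in the naive list. Of 13 genes of the epiblast and of pluripotency in general, 11 were on, and the median over all 13 was 12.3 FPKM. Lin28a, an RNA-binding protein that blocks let-7 maturation, stood at 216, 223, 217 and 222 FPKM and ranked 294, above Otx2. Sall4, a zinc finger factor of early embryonic cells, stood at 77.5 ± 3.69 FPKM, and Dnmt3b, a de novo DNA methyltransferase, at 75.3 ± 4.58 FPKM. Pou5f1, which encodes OCT4, stood at 18.8, 30.4, 18.7 and 22.5 FPKM, highest in replicate 2 at 1.52 times the mean of the others. Of 12 genes of naive pluripotency, 2 were on. These were Nanog at 4.05, 5.57, 3.42 and 4.51 FPKM and Zfp42 at 1.08 to 1.37 FPKM. The levels of the lists overlapped. Of the epiblast and general list, Fgf5, Utf1 and L1td1 were on at means of 1.95, 1.40 and 1.38 FPKM, below Nanog. Klf2 reached 1 FPKM in 3 libraries (0.972 to 1.70 FPKM), while Klf4 and Esrrb lay at 0.352 to 0.711 FPKM and 0.391 to 0.643 FPKM, and Prdm14 was silent (0.0227 to 0.0512 FPKM).

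Mesoderm genes were on in 0 of 14 cases and endoderm genes in 0 of 11, with 7 and 6 silent. Highest in the mesoderm list were Tcf15 at 0.527 to 1.08 FPKM and Tbx6, of presomitic mesoderm, at 0.414 to 0.667 FPKM, while Msgn1 was listed at 0 and Mesp1 and Mixl1 were silent. In the endoderm list Gata4 stood at 0.639 to 0.718 FPKM and Foxa2 as above, whereas Sox17, the definitive endoderm factor, was silent at 0 to 0.0461 FPKM, as were Afp and Hnf4a. Apoa1 stood at 0.114, 0.380, 0.0711 and 0.107 FPKM.

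Markers of cells that could be carried along were low or split. Of 12 blood, endothelial and immune genes 1 was on, Cd68, a lysosomal protein of macrophages, at 1.74 to 2.60 FPKM. Ptprc, which encodes the leukocyte antigen CD45, and Tie1, of endothelium, were listed at 0 in all 4 libraries, and the range of Pecam1 was 0.413 to 0.524 FPKM. Of 8 germ line genes 1 was on, Sycp3 at 2.45 to 3.95 FPKM, with Dazl silent. Of 12 fibroblast and muscle genes 4 were on. They were Pdgfra at 7.78 ± 0.392 FPKM, Col1a2 at 7.02 ± 0.749 FPKM, Des at 3.94, 7.58, 4.22 and 4.79 FPKM and Pdgfrb at 1.33 ± 0.172 FPKM, whereas Col1a1 lay at 0.456 to 0.594 FPKM and Col3a1, Dcn, Lum and Myog were silent. The part of such cells in any other value was not tested.

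**Figure D4:**
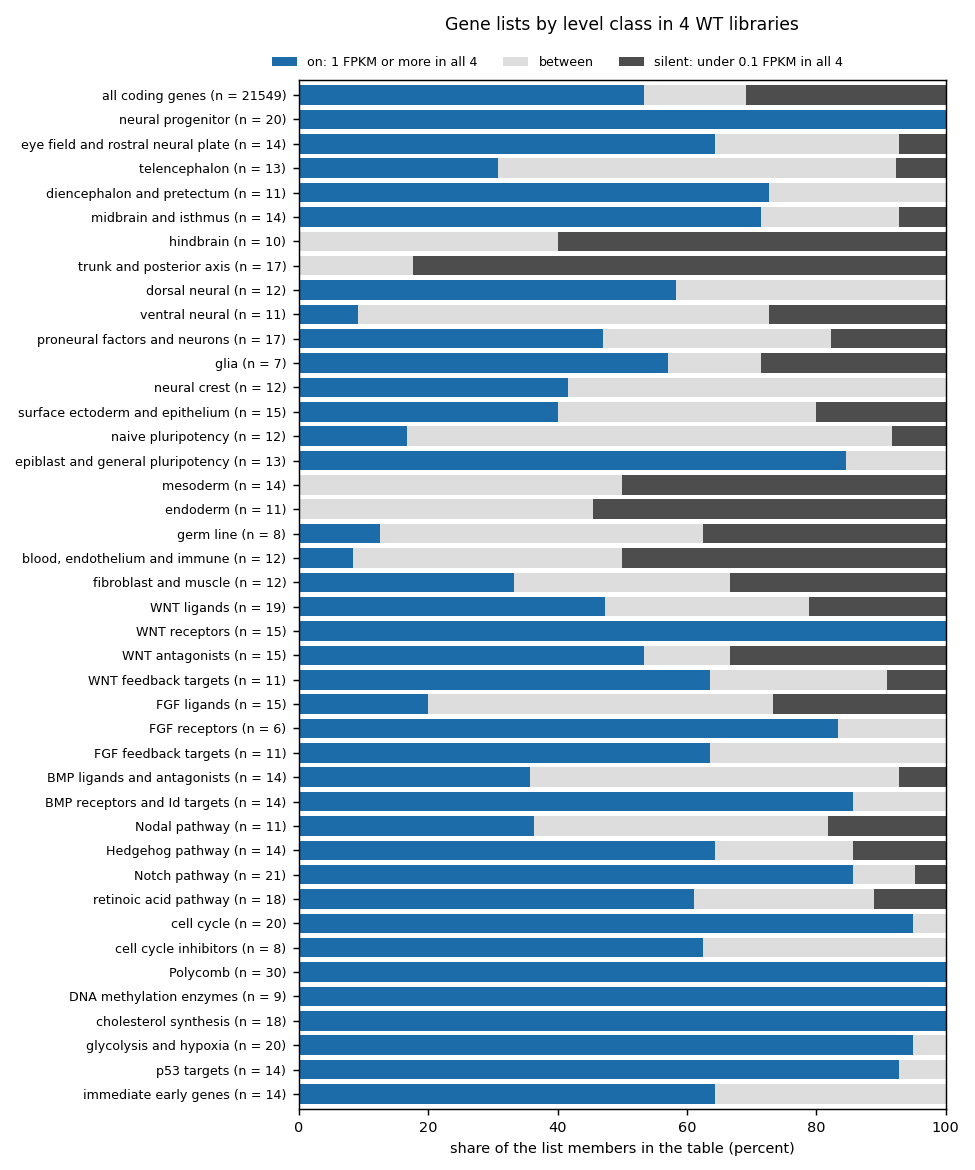
Share of the members of each gene list (percent) that were on, between or silent in the 4 WT libraries, with all coding genes at the top. Neural progenitor, WNT receptor, Polycomb, DNA methylation and cholesterol lists are on throughout, and the hindbrain, trunk, mesoderm and endoderm lists hold no gene that was on.

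WNT receptors were all on, and ligands and antagonists were split between genes on and genes low or silent. The receptor list had a median of 14.9 FPKM, near that of all genes on, and the antagonist list one of 1.39 FPKM. WNT ligands bind Frizzled and LRP receptors and free beta-catenin, which turns on feedback targets such as Axin2. Of 19 ligand genes 9 were on, Wnt1 first, then Wnt7b at 21.7, 15.2, 19.7 and 18.9 FPKM and Wnt5b at 13.9 ± 0.629 FPKM. Wnt3a, of the dorsal midline and the tail, stood at 3.89, 2.32, 3.79 and 3.92 FPKM. The ligand genes Wnt2, Wnt7a and Wnt9b were silent. All 15 receptor genes were on, led by the Frizzled genes Fzd2 (39.9 ± 2.32 FPKM) and Fzd7 (30.6 ± 0.895 FPKM) and by Ryk (30.1 ± 0.592 FPKM). Fzd5, a receptor of the eye field, stood at 12.1, 18.6, 12.5 and 12.8 FPKM, with replicate 2 above the other 3.

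Antagonists of WNT were on in 8 of 15 cases (53.3%), the same share as all coding genes. Shisa2, which holds back Frizzled and FGF receptors, stood at 117, 156, 129.6 and 125 FPKM, Sfrp1, a secreted decoy, at 71.6, 73.7, 71.4 and 68.4 FPKM, and Tle1, a corepressor, at 47.0 ± 0.439 FPKM. Dkk1, an LRP antagonist of the anterior embryo, lay at 0.193 to 0.505 FPKM, and Dkk2, Dkk4, Wif1, Sost and Cer1 were silent. With a WNT inhibitor in the medium, 7 of 11 feedback targets were on (63.6%), beside 53.3% of all coding genes. Axin2 stood at 42.4, 36.3, 41.6 and 41.5 FPKM, Apcdd1, a WNT inhibitor of the membrane, at 23.2 ± 0.4998 FPKM, and Tcf7 at 17.7 ± 0.499 FPKM. Lef1, a partner of beta-catenin, was highest in replicate 2 (9.53, 16.7, 12.3 and 11.8 FPKM) and Axin2 lowest there. Cdx1 was silent and Lgr5 stood at 0.259 to 0.503 FPKM. No library without the inhibitor was used here.

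In FGF signalling 5 of 6 genes of the receptor list were on, with a median of 8.92 FPKM. Of 15 ligand genes 3 were on, Fgf15 at 5.82 ± 0.415 FPKM, Fgf8 as above and Fgf5, of the epiblast, at 1.37, 2.90, 1.62 and 1.93 FPKM. Fgf1, Fgf16 and Fgf17 were silent. The receptors Fgfr1 and Fgfr2 stood highest of that list, at 107, 118, 106 and 109 FPKM and 81.9, 98.5, 82.4 and 83.2 FPKM, with Fgfr3 at 6.15 ± 0.388 FPKM, and Fgfr4 at 0.146 to 0.297 FPKM. Feedback targets, which report the FGF and ERK pathway, were on in 7 of 11 cases (63.6%), beside 53.3% of all coding genes. The median over that list was 3.96 FPKM. Spred2, Spred1 and Dusp4, inhibitors of ERK signalling, stood at 15.1 ± 0.859 FPKM, 12.6 ± 0.856 FPKM and 11.8 ± 0.474 FPKM. Dusp6 lay at 4.05, 2.41, 3.41 and 3.52 FPKM. The ETS factors Etv5 and Etv4 lay at 2.83, 0.986, 1.96 and 2.13 FPKM and 0.778, 0.234, 0.465 and 0.399 FPKM. Dusp6, Etv5 and Etv4 were each lowest in replicate 2. Etv5 and Etv1 (1.41, 0.846, 1.30 and 1.45 FPKM) would be on without replicate 2, so the count of feedback targets on depends on that library.

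BMP ligands and antagonists were low, and most receptor, SMAD and Id genes were not. Of 14 ligand and antagonist genes 5 were on, and the highest was Bmp7. The antagonist genes Chrd, Nog and Fst lay at 0.936 to 1.17 FPKM, 0.682 to 0.866 FPKM and 0.666 to 1.08 FPKM, and Bmp2 was silent. Of 14 receptor, SMAD and Id genes 12 were on, Id4 only at a mean of 1.08 FPKM. Smad6, counted with the ligands and antagonists, and Msx1, of the dorsal list, were also low, at means of 1.85 and 1.42 FPKM. Id3, an inhibitor of bHLH factors that BMP induces, stood at 91.3, 89.9, 95.2 and 90.6 FPKM, Smad4, the common SMAD, at 53.2 ± 1.71 FPKM, and Bmpr1a at 44.2 ± 2.53 FPKM.

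In the Nodal pathway 4 of 11 genes were on. These were the intracellular factors Smad2 (27.1 ± 1.26 FPKM), Smad3 (20.8 ± 2.49 FPKM) and Foxh1 (17.1, 23.4, 16.3 and 18.6 FPKM) and the receptor gene Acvr1b (12.4 ± 0.285 FPKM). Nodal itself stood at 0.0338 to 0.143 FPKM, its antagonist Lefty1 at 0.252 to 0.428 FPKM, the receptor gene Acvr1c was silent and the coreceptor gene Cfc1 was listed at 0. Hedgehog genes were on in 9 of 14 cases (64.3%), beside 53.3% of all coding genes. Smo, the transducer, stood at 71.4, 71.3, 73.8 and 71.4 FPKM, Gas1, a coreceptor gene, at 28.9 ± 0.790 FPKM, Sufu, a repressor, at 27.6 ± 2.27 FPKM, and Gli3 at 24.8 ± 0.894 FPKM. The ligand genes Shh, listed at 0, and Dhh were silent and Ihh stood at 0.0592 to 0.120 FPKM. The pathway targets Gli1 and Hhip lay under 1 FPKM in every library, while Ptch1 stood at 6.21 ± 0.144 FPKM.

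Notch genes were on in 18 of 21 cases. Lfng, which modifies Notch receptors, stood at 51.3, 44.5, 54.0 and 47.6 FPKM, Hes1, a Notch target, at 33.7, 33.9, 35.9 and 35.9 FPKM, and Rbpj, the DNA-binding partner of Notch, at 33.1, 32.4, 32.9 and 32.6 FPKM. Among receptors Notch3 was at 31.2 ± 0.542 FPKM, Notch2 at 17.6 ± 0.371 FPKM and Notch1 at 17.2 ± 0.391 FPKM, and the ligands Dll1 and Jag1 stood at 27.3 ± 1.28 FPKM and 24.0 ± 1.08 FPKM. Heyl was silent.

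Retinoic acid genes were on in 11 of 18 cases (61.1%), beside 53.3% of all coding genes. Crabp2, which carries retinoic acid to the nucleus, stood at 322, 314, 324 and 331 FPKM and ranked 181, above Lin28a. Crabp1 stood at 36.4 ± 1.26 FPKM, the receptor gene Rxrb at 32.6 ± 1.35 FPKM, and Cyp26a1, which degrades retinoic acid, at 18.4, 29.6, 20.8 and 20.4 FPKM. The synthesis genes Aldh1a3 and Aldh1a2 lay about the threshold, at 0.890 to 1.25 FPKM and 0.689 to 1.15 FPKM, and Aldh1a1 was silent. Rarb, a direct retinoic acid target, stood at 0.142 to 0.257 FPKM, and Cyp26b1 was silent.

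Cell cycle genes were on in 19 of 20 cases, led by Cdk4 at 840.2, 751, 786 and 812 FPKM, Mcm7, a replicative helicase subunit, at 235, 226, 233 and 229.7 FPKM, and Top2a at 223, 228, 227 and 233 FPKM. Cdk6 was the gene not on (0.411, 0.497, 0.269 and 1.17 FPKM). Ccnd1, which encodes cyclin D1, stood at 27.3, 18.3, 24.0 and 24.7 FPKM, lowest in replicate 2. Among 8 cell cycle inhibitor genes 5 were on, led by Cdkn1c at 39.7, 45.1, 43.7 and 43.0 FPKM and by Cdkn1a, a p53 target, at 26.9, 41.7, 29.2 and 31.6 FPKM, with Cdkn1b at 24.0 ± 1.41 FPKM.

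Chromatin regulators were on without exception in both lists. All 30 Polycomb genes were on. Ezh2, the methyltransferase of Polycomb repressive complex 2, stood at 148, 146, 159 and 146 FPKM, and the histone chaperones Rbbp4 and Rbbp7 at 117 ± 2.75 FPKM and 112 ± 5.00 FPKM. Eed and Suz12, core subunits of the same complex, stood at 36.8, 36.9, 37.1 and 36.7 FPKM and 36.1 ± 1.56 FPKM. Ezh1, the other methyltransferase gene, was lower at 7.95, 11.0, 8.60 and 9.24 FPKM, without overlap. Of the CBX readers Cbx2 was at 52.7 ± 3.17 FPKM and Cbx7 at 12.7 ± 1.54 FPKM. All 9 DNA methylation enzyme genes were on, led by Uhrf1 (162, 158, 161 and 162 FPKM) and Dnmt1 (85.5, 78.9, 85.8 and 84.6 FPKM), both of maintenance methylation. Tet1 stood at 8.37 ± 0.279 FPKM and Dnmt3l at 1.06 to 1.59 FPKM.

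Metabolic and stress lists were largely on. All 18 cholesterol synthesis genes were on, led by Hmgcs1 at 321, 369, 334 and 347 FPKM. Of 20 glycolysis and hypoxia genes 19 were on, led by Gapdh (2097, 2110.1, 1941 and 2047 FPKM), Pkm (899 ± 36.1 FPKM) and Ldha (641 ± 28.3 FPKM), and Adm was between. Of 14 p53 targets 13 were on, led by Bax (148 ± 5.55 FPKM), Ccng1 (85.4 ± 7.22 FPKM) and Trp53inp1 (55.6 ± 5.08 FPKM). Of 14 immediate early genes 9 were on (64.3%), beside 53.3% of all coding genes. They were led by Ier2 (29.5 ± 0.432 FPKM), Jund (14.6 ± 0.650 FPKM) and Klf6 (9.42 ± 0.672 FPKM), while Fos lay at 0.536 to 1.08 FPKM.

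The highest coding genes were mostly of translation and the mitochondrion. Txnrd1, which encodes a thioredoxin reductase, ranked first at 5129, 2654, 2535 and 3212 FPKM, but its level was uncertain. Its FPKM and the authors' mean reads together imply a length of 91.5 bases, or 1.29% of its annotated exon bases. The same share was 1.31% for Fdps, a cholesterol gene, or 54.9 bases, so that its level per length is less certain than its count of reads. For Pax6 and Gapdh the share was 22.8% and 23.2%, with implied lengths of 2663 and 959 bases. Exon bases are those of all annotated transcripts of a gene together, so a share of this size alone does not settle whether a level is off. Lower than both Txnrd1 and Fdps were mt-Co2, mt-Co3 and mt-Atp6. Their authors' means were 7.29, 8.46 and 17.6 reads, or an implied 0.0282%, 0.0321% and 0.0715% of the exon bases. The levels of these 3 genes are not supported by the read column, and the mitochondrial share of FPKM given above includes them. For mt-Atp8 the share was 10.496%. After Txnrd1 came Eef1a1, an elongation factor, at 2263 ± 75.5 FPKM, then mt-Atp8, mt-Co1, Gapdh, Rpl41, mt-Co2, Rps12, mt-Nd1, mt-Atp6, Hsp90ab1, Rplp1, Npm1, mt-Co3 and mt-Cytb, the last at 1244 ± 33.7 FPKM. Several of these, such as Gapdh, Eef1a1, Rpl41, Rps12 and Npm1, have processed copies in the genome that can share reads. Ribosomal protein genes held 11.5% to 11.6% of FPKM in each library. After Sox2, the highest listed transcription factors were Sox11, Srebf2 (89.6 ± 5.01 FPKM), Sall4, Sox4 (53.9 ± 2.26 FPKM), Smad4, Zic2, Sox3 (44.5 ± 1.64 FPKM), Sox21 (43.1 ± 4.70 FPKM), Pax6, Sox9, Pax2, Fezf1 and Hes1, and from Sox3 to Fezf1 each overlapped the factor next in order.

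The spread between replicates was small and was smaller at higher levels. Over 11698 coding genes with a mean of at least 1 FPKM and no 0, the median coefficient of variation was 4.95%. Of these genes, 9570 (81.8%) were under 10%. Read counting alone, estimated from the authors' mean reads with no stated scaling, would give about 3.01%. That value is an expected spread and not one taken over 4 libraries, so the 2 percentages differ in measure. Without replicate 2 the median coefficient of variation was 3.84%. It was 11.4% from 1 to 3 FPKM, 6.70% from 3 to 10, 4.52% from 10 to 30, 3.32% from 30 to 100 and 2.50% at 100 FPKM and above. Across genes, Pearson's r of log2(FPKM + 1) was 0.9988 to 0.9989 for the pairs without replicate 2 and 0.9974 to 0.9981 for those with it. Genes are not independent replicates and no p is given. Squared differences between libraries had medians of 2.18 to 5.75 times an estimate of what read counting gives. That estimate came from FPKM and the authors' mean reads, whose scaling is not stated, and not from counts per library. It is therefore approximate and cannot show whether a pair agreed within sampling noise.

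Among genes with a mean of at least 10 FPKM, Brwd3, a bromodomain gene, varied least (10.2, 10.2, 10.2 and 10.1 FPKM), followed by Psmc3ip, Zfp317, Tmbim6 and Ctdsp1. Txnrd3 varied most, at 221, 16.5, 27.1 and 121 FPKM, and Cisd3, of an iron-sulfur protein, followed at 9.85, 36.0, 12.0 and 13.9 FPKM, highest in replicate 2. Suco was highest in replicate 4, at 29.9 FPKM against at most 14.7 FPKM elsewhere. Tmsb15l and Gm11032, whose authors' means were 1.70 and 3.46 reads, Gm15446, Selenos, Pgm1, Lars2 and Txnrd1 completed the first 10. Selenos, a selenoprotein gene, stood at 271, 159, 364 and 210.0 FPKM.

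Replicate 2 was the highest library for 39.2% of the 11698 genes and the lowest for 26.4%, and after scaling the libraries to one median the shares were 29.4% and 36.5%. It exceeded each other library at least 1.25-fold in 59 of 7223 genes with a mean of at least 10 FPKM and lay below each by as much in 25, against at most 5 and 10 genes for any other library. Among the 59 were Aldoc, an aldolase gene (16.9, 29.4, 18.6 and 18.995 FPKM), Phlda3, a p53 target (32.5, 51.1, 33.2 and 36.4 FPKM), Hesx1, Six3, Pou5f1, Lef1, Fzd5, Cyp26a1 and Cdkn1a. Among the 25 were Nr2f1, a nuclear receptor factor (21.1, 11.0, 18.3 and 19.6 FPKM), Col2a1, a collagen gene (30.4, 18.5, 29.6 and 28.2 FPKM), Otx1, En1 and Ccnd1.

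By list, replicate 2 was the highest library for 18 of 19 glycolysis and hypoxia genes at a mean of 1 FPKM or more (median ratio to the others 1.15), 12 of 13 p53 targets (1.18), 8 of 9 immediate early genes (1.15), 9 of 11 epiblast and pluripotency genes (1.17) and 5 of 6 surface ectoderm genes (1.40). After scaling these counts were 14, 12, 7, 7 and 5. It was the lowest for 8 of 11 midbrain and isthmus genes (0.751), 8 of 9 FGF feedback targets (0.717) and 8 of 9 Hedgehog genes (0.937), and after scaling for 8, 9 and 8. For the FGF feedback targets replicate 1 was the highest library in 7 of 9 cases. The median ratio over all 11698 genes was 1.01 as deposited and 0.991 after scaling, and the Polycomb median moved from 1.02 to 0.992. Genes of a list are not replicates, and these counts describe 1 library.

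**Figure D5:**
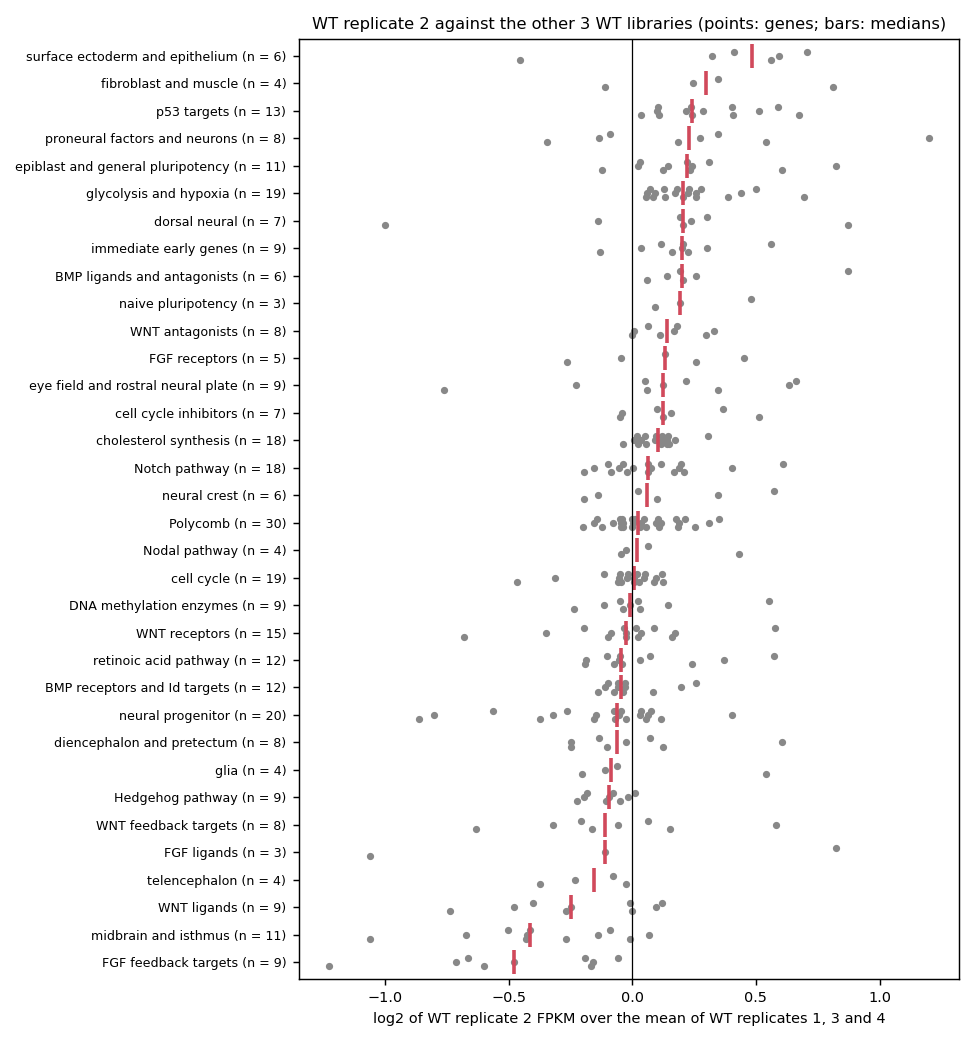
Log2 of the FPKM of WT replicate 2 over the mean of WT replicates 1, 3 and 4 (horizontal axis) for list genes with a mean of at least 1 FPKM, by list. Points are genes and red bars list medians, which run from a ratio of 0.717 for FGF feedback targets to 1.40 for surface ectoderm genes.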

How the data were processed

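The values analysed are FPKM, which the authors deposited for each library together with a mean for each genotype, per the file headers. A read signal, given in the deposited table as a mean read count for each genotype with no stated scaling, was used for the reads behind a level. The submitters' processing notes name TopHat2, Cufflinks, SAMtools, FastQC and DESeq2 without saying what each was used for, and mm10 and GRCm38 as genome builds. Strand assignment was not stated there, and genes that overlap are therefore uncertain.

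Only the 4 WT columns were used. Of 46406 table entries, 45900 were matched by identifier to GENCODE M21 (GRCm38), and 21549 of them were protein coding. The authors' ratio and p-value columns, deposited beside them, were not used. Genes were classed as on (1 FPKM or more in all 4 libraries) or silent (under 0.1 FPKM in all 4), the coefficient of variation was computed over 4 libraries, and correlations used log2(FPKM + 1). The implied length of a gene is the authors' mean reads divided by its FPKM and by their summed reads. Depth ratios between libraries came from whole-read steps of low values. Of 42 lists with 550 distinct genes, 545 genes were in the table, and the others (Tubb3, Foxf1, Foxc2, Mvd and Gdf1) were not analysed here. Some further genes of these lists are not reported here and enter no count of a list. Promoter windows are those of RefSeq (GRCm38.p6), and 16302 coding genes matched by symbol. Scripts were tested on simulated data and run in Python 3.11.15 with pandas 2.3.3 and numpy 2.4.6.

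The members and lists were chosen with earlier results of these data known. Genes were named by a rule: the 8 markers, the 3 highest members and up to 3 silent members of each list, members on in lists with 3 or fewer on, the 15 highest coding genes and listed factors, and the 10 most and 5 least variable genes at 10 FPKM or more. A further 85 genes were named after their values were seen. Alternatives covered the thresholds, the pseudocount, median scaling and each replicate left out.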

Additional observations from a re-analysis of the deposited data

Results flagged for a closer look

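In 17 of 227 named genes with a mean of at least 0.1 FPKM (7.49%), 1 WT library lay far from the other 3 by Dixon's criterion. Chance flags about 1 in 20 groups, but of the 17 genes 2 were named for their spread and 7 after their values were seen, so the share cannot be read against that rate. WT replicate 2 was that library in 9 genes as the highest and in 6 as the lowest.

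Among patterning genes replicate 2 was high for Fgfr2 (98.5 against 81.9 to 83.2 FPKM), Hesx1 (36.7 against 21.7 to 24.1 FPKM), Fzd5 (18.6 against 12.1 to 12.8 FPKM) and Neurog2 (6.91 against 2.71 to 3.25 FPKM). Of other genes it was high for Aldoc (29.4 against 16.9 to 18.995 FPKM), Cisd3 (36.0 against 9.85 to 13.9 FPKM), Pdgfrb (1.59 against 1.22 to 1.28 FPKM), Dnmt3l (1.59 against 1.06 to 1.12 FPKM) and Apoa1 (0.380 against 0.0711 to 0.114 FPKM). It was low for the signalling genes Wnt1 (85.0 against 101 to 104 FPKM), Axin2 (36.3 against 41.5 to 42.4 FPKM), Gli3 (23.4 against 25.1 to 25.4 FPKM) and Wnt3a (2.32 against 3.79 to 3.92 FPKM). It was also low for Npm1 (1245 against 1277 to 1282 FPKM) and mt-Atp6 (1318 against 1363 to 1370.3 FPKM), although the authors' mean of 17.6 reads does not support the latter's level. The depth and mitochondrial share of replicate 2 are given above, and their part in these values was not tested.

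Of the other libraries, replicate 3 was high for Smo (73.8 against 71.3 to 71.4 FPKM) and replicate 4 for Suco (29.9 against 14.1 to 14.7 FPKM). The gap for Smo was small beside its level.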

How the results depend on the processing

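No paired analysis was possible because the only group used is WT, and no comparison between groups was made. Genes on kept within 1.5 times their count under every alternative run. Counting as silent only genes at exactly 0 FPKM gave 4212. The median coefficient of variation was 6.63% with no filter on low values, and it ran from 3.84% to 5.04% with each replicate left out, lowest without WT replicate 2. The lowest correlation between libraries was 0.9962 with a pseudocount of 0.1 and 0.9946 over genes with a mean of at least 1 FPKM, and it ran from 0.9974 to 0.9988 with each replicate left out, highest without WT replicate 2. Genes with WT replicate 2 highest fell from 39.2% to 29.4% after median scaling, an alternative chosen after seeing the data.

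Of 336 list counts under alternatives, 15 in 11 lists moved by over 1.5 times. At 0.5 FPKM, hindbrain genes on went from 0 to 1, ventral from 1 to 2, neural crest from 5 to 8, mesoderm and endoderm from 0 to 1 each, and BMP ligands and antagonists from 5 to 10. At 2 FPKM, dorsal genes went from 7 to 4, neuronal genes from 8 to 5, neural crest to 3, naive pluripotency from 2 to 1, blood, endothelium and immune from 1 to 0, FGF ligands from 3 to 1, and BMP ligands and antagonists to 2. Hindbrain genes on also numbered 1 by the mean of the libraries and without WT replicate 2. Of 1746 ranks of named genes under alternatives, 112 moved by over 1 SD. Because genes near 0.1 FPKM rest on a median of 6.77 reads, counts of silent genes are limited by depth.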

Other observations

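Long noncoding RNA genes were not in the lists. Gas5, which hosts small nucleolar RNAs, stood at 334, 391, 326 and 363 FPKM in WT replicates 1 to 4, and Rian at 376, 364, 352 and 361 FPKM. Meg3, an imprinted maternally expressed gene, stood at 138 to 151 FPKM, Firre at 62.9 to 77.5 FPKM and Malat1 at 40.8 to 56.8 FPKM. H19, also imprinted, lay at 0.238 to 0.675 FPKM. Xist, the RNA of the inactive X chromosome, lay at 0.0515 to 0.119 FPKM, and the Y-linked genes Eif2s3y, Ddx3y and Uty at 24.3 ± 0.930, 5.84 ± 0.427 and 5.40 ± 0.303 FPKM (SD, n = 4) in these cells of the E14 line.

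Genes with an annotated selenocysteine, an amino acid read from a UGA codon, stood out after the values were seen. Of these, 20 were on with at least 10 of the authors' mean reads. Their median implied length was 21.03% of the annotated exon bases, against 65.4% for 11273 other coding genes on with as many reads, and 4 of the 20 and 165 of the 11273 lay under 10%. The median coefficient of variation was 10.0% for the 20 and 4.82% for the others. Txnrd1 and Txnrd3, both thioredoxin reductase genes, had 1.29% and 4.27%, Msrb1 5.85% and Selenos 7.04%, while Sephs2 had 82.8%. Selenov stood at 1.45, 9.73, 2.02 and 2.10 FPKM. The cause was not tested.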
